A study of Homo sapiens with 4 samples.

Results

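Splicing factor genes were followed in m6A-seq data of HEK293T cells, a line derived from human embryonic kidney that expresses the SV40 large T antigen. The 98 genes were taken by symbol from 14911 genes with a count, and the rule used no measured value. They cover the SR proteins (SRSF), the SR-like activators (TRA2, SRRM), the hnRNP proteins (HNRNP), the SNRP proteins of the snRNPs, LUC7L proteins, subunits of the U2 complex (SF3A, SF3B) and its partners (SF1, U2AF, U2SURP), the PRPF factors, 6 RBM regulators and the CLK and SRPK kinases. The symbols chosen leave out the SNRNP genes.

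All cells were X-ray-exposed and carried an shRNA. One population carried the control shRNA (shCTL) and the other an shRNA against ALKBH5 (shA5), the enzyme that removes m6A from RNA in the nucleus. Each population gave an input, which is fragmented poly(A) RNA, and an m6A-IP, which is the part of those fragments bound by an m6A antibody. This makes 4 libraries with 1 library per group, so no difference has a replicate check and no p-value was computed. Which ALKBH5 shRNA was used and how long after exposure the cells were harvested are not given in the sources used here, and unexposed cells were not analysed here.

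Splicing is carried out by the spliceosome, which is built from snRNPs. The U1 snRNP finds the 5′ splice site, the U2 snRNP finds the branch point with the help of SF1 and the U2AF dimer, and the tri-snRNP and Prp proteins complete the active complex. SR proteins bind exonic enhancers and mostly favour exon inclusion, while many hnRNP proteins bind silencers and favour skipping. Many SR and hnRNP genes control their own mRNA through alternative exons that lead to decay. m6A lies mostly in long exons and near stop codons, in short motifs whose core is often GGAC, and HNRNPC is known to reach its binding sites more easily where m6A loosens RNA structure.

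The deepest library was the shCTL m6A-IP (3944402 counts) and the shallowest the shA5 input (1311390). Counts were divided by library totals to give CPM, that is counts scaled to equal depth. ALKBH5 itself fell between the inputs, from 217 CPM (486 counts) to 111 CPM (145 counts), or by 0.97 on the log2 scale (95% interval −1.25 to −0.70). KRT18 and VIM, which were read as levels only to look at the line, were low in every library (4 to 30 and 2 to 8 counts), and KRT8 had 27 to 117 counts. These levels do not serve as a check of the line. Whether low counts in these libraries reflect low RNA levels was not tested. The splicing factor genes took 3.07% of the counts of the shCTL input, 2.72% of its IP, 3.10% of the shA5 input and 2.73% of its IP. The share of both IPs was lower than that of both inputs. SRRM2 alone held 26.3 to 31.8% of these counts.

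m6A enrichment was computed as log2 of the IP CPM over the input CPM, after 0.5 CPM was added to each. A value of 0 means that the gene takes the same share of both libraries. It is a relative measure over the whole transcript and not a count of m6A sites. Intervals are exact 95% intervals that cover counting error only. Counts of genes by interval are given for the splicing factor genes alone, with no share over all genes beside them. Of the 98 genes, 64 averaged 50 counts or more across the libraries and were measured further, as were 5320 genes in all, and 34 were below this filter. A difference was called when it passed 1.5-fold, which is 0.585 on the log2 scale.

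For the genes at both ends of the range, the GGAC nearest to the stop codon of the leading transcript is shown with its surroundings, since this is the place where m6A is most often found. The sequences were cut from Gencode v44 transcripts on hg38, each is 25 bases long on the sense strand, and capitals mark the GGAC. The first 4 belong to the genes of lowest enrichment in shCTL and the last 3 to genes of high enrichment, taken from those that averaged 100 counts or more. HNRNPA1L2, which had the highest enrichment, is not shown. Only a GGAC whose 25 bases lie within 1 exon was taken.
SRSF1, chr17:58006967-58006991, minus strand, exon 1 of 4, coding sequence: tcgccgcgggGGACcgcccttcgcc
SNRPB, chr20:2462678-2462702, minus strand, exon 6 of 7, coding sequence: cctggaagagGGACtccaatgggca
SRSF7, chr2:38745125-38745149, minus strand, exon 8 of 8, at the end of the coding sequence: ctgaaagaatGGACtgaagctctca
HNRNPC, chr14:21211437-21211461, minus strand, exon 7 of 8, coding sequence: ctgaggagggGGACctactggatga
SRSF4, chr1:29148096-29148120, minus strand, exon 6 of 6, 3′ UTR: tcagtaacctGGACggctctaaggc
SRRM3, chr7:76285778-76285802, plus strand, exon 15 of 15, coding sequence: agcccctcgaGGACccccagtccca
SF3B5, chr6:144095255-144095279, minus strand, exon 1 of 1, coding sequence: tcagccttgtGGACcgccagccgac
In the genes of lowest enrichment the GGAC lies 586 (SRSF1), 63 (SNRPB), 2 (SRSF7) and 125 bases (HNRNPC) before the stop codon. In the genes of high enrichment shown, it lies 304 bases after the stop codon in SRSF4, and 51 (SRRM3) and 28 bases (SF3B5) before it, so the distances of both sets overlap. All 64 measured genes had a GGAC somewhere in the transcript, as had 5274 of 5296 genes with a transcript in the annotation (99.6%). A GGAC within 100 bases of the stop codon was present in 34 of the 64 (53.1%) and in 3282 of the 5296 (62.0%).

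Splicing factor mRNAs took a smaller share of the m6A-IP than of the input. In shCTL the median enrichment was −0.57 (quartiles −1.16 and −0.089), against −0.11 over all genes. In shA5 it was −0.68, against −0.096 over all genes. In shCTL, 31 of the 64 were at least 1.5-fold lower in the IP, where 30.3% of all genes were, and 6 were at least 1.5-fold higher, where 22.5% of all genes were. In shA5, 34 were lower and 7 higher, against 31.7% and 24.3% of all genes. Of the 64, 28 were lower in both populations (26.3% of all genes) and 6 were higher in both (18.7% of all genes). The 6 were SRSF4, SRRM3, HNRNPA0, HNRNPA1L2, U2AF2 and SF3B5. The counting interval in shCTL lay below 0 for 43 genes and above 0 for 9, and held 0 for 12. Enrichment above 0 was found for 11 genes in shCTL and 13 in shA5, where 45.5% and 46.3% of all genes were above 0.

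**Figure D1:**
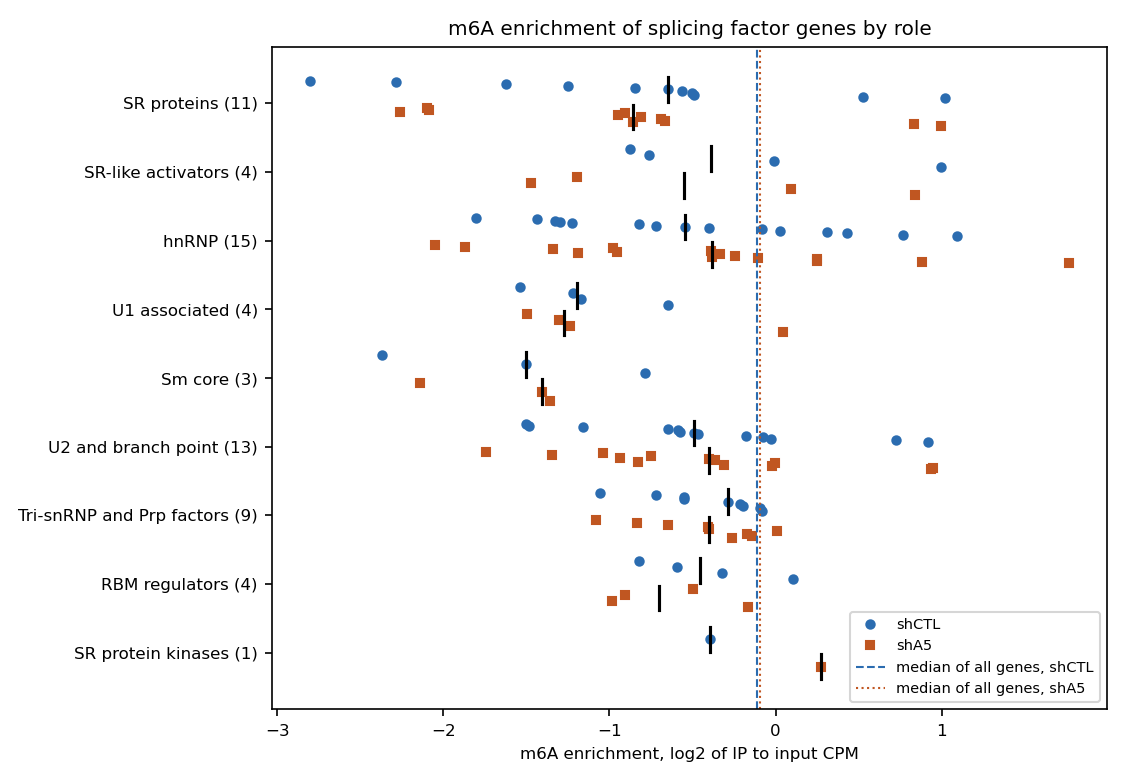
m6A enrichment (log2 of IP to input CPM, x axis) of the 64 measured splicing factor genes in shCTL (circles) and shA5 (squares), by role, with the number of genes measured in parentheses. Black bars are the medians of each role, the dashed and dotted lines are the medians of all 5320 genes in shCTL (−0.11) and shA5 (−0.096), and height within a role has no meaning. The U1-associated and Sm core genes lie to the left of the all-gene median in shCTL, and SR, SR-like, hnRNP and U2 genes also reach far to the right, with HNRNPA1L2 at 1.77 in shA5.

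SR proteins spanned almost the whole range. Of 12 genes 11 were measured, with a median of −0.65 in shCTL, and 6 were lower and 1 higher by 1.5-fold. SRSF1, a general SR protein that is also an oncogene, was the lowest of all 64 genes in shCTL. It had 107 CPM in the shCTL input and 15.0 in its IP, and 79.3 and 18.1 CPM in shA5, so that both IPs were far below both inputs. Its enrichment was −2.80 in shCTL (−3.28 to −2.43) and −2.10 in shA5 (−2.62 to −1.65). SRSF7, which binds GA-rich RNA and takes part in mRNA export, stood close to it at −2.28 and −2.09. SRSF2, whose coding sequence is mutated in blood cancers, had −1.62 and −2.26, and SRSF5 had −1.25 and −0.91.

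SRSF4 was the opposite case. It had 1260 CPM in the shCTL input and 2557 in its IP, and 1342 and 2675 CPM in shA5, so both IPs were about the same and both were above the inputs. Its enrichment was 1.02 in shCTL (0.96 to 1.08) and 0.99 in shA5 (0.92 to 1.07). SRSF8, an intronless SR gene, was the only other SR gene above 0, with 0.53 in shCTL and 0.83 in shA5. SRSF3, SRSF6, SRSF9, SRSF10 and SRSF11 lay between −0.85 and −0.49 in shCTL.

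Of the SR-like activators, 4 of 7 were measured, with a median of −0.39 in shCTL. SRRM2, a large scaffold protein of nuclear speckles, had 8573 CPM in the shCTL input, 8525 in its IP, 8137 in the shA5 input and 8690 in its IP. These are levels per library total and not per length, and all 4 were close together, with an enrichment of −0.0081 in shCTL and 0.095 in shA5. SRRM3, which activates microexons in neurons, had 46.5 and 93.0 CPM in the shCTL input and IP and 51.9 and 93.1 CPM in shA5, an enrichment of 0.99 and 0.84. SRRM1 and TRA2B, which both act on enhancer-dependent exons, were below 0 with −0.88 and −0.76 in shCTL. The neuronal SRRM4 stayed below the filter with 30 and 65 counts in shCTL and 9 and 76 in shA5.

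The hnRNP genes formed the largest class, with 15 of 23 measured, a median of −0.55 in shCTL, 7 lower and 2 higher. HNRNPC, which packages nascent transcripts, had 158 and 44.9 CPM in the shCTL input and IP and 210 and 50.2 CPM in shA5. Its enrichment was −1.80 (−2.08 to −1.55) and −2.05 (−2.35 to −1.78), the lowest of the class in both. HNRNPDL, HNRNPK, HNRNPH1 and HNRNPF followed in shCTL, between −1.44 and −1.22. At the other end HNRNPA0 had 669 and 1138 CPM in shCTL and 602 and 1108 CPM in shA5, an enrichment of 0.77 and 0.88.

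HNRNPA1L2, an intronless gene of near-identical sequence to HNRNPA1, had 77 and 292 counts in the shCTL input and IP and 36 and 298 in shA5. Its enrichment was 1.09 in shCTL and 1.77 in shA5, the highest of the 64 in both, while that of HNRNPA1 was −0.83 and −0.95. Reads can fit both genes, and HNRNPA1 has 74 named pseudogenes, so the split of reads between them is uncertain. HNRNPH2 and HNRNPUL2 were modestly above 0 in both populations, with 0.43 and 0.31 in shCTL. HNRNPH1, the close paralog of HNRNPH2, was at −1.30.

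The U1-associated and Sm core genes lay lower than the other classes by their medians. The U1-associated genes had a median of −1.20 in shCTL (4 of 5 measured), and all 4 were 1.5-fold lower there. This does not hold for all U1 proteins, since the symbols leave out SNRNP70, the U1-70K protein. It had an enrichment of 0.95 in shCTL and 1.05 in shA5. SNRPA, the U1-A protein, had 659 and 282 CPM in the shCTL input and IP and 809 and 328 CPM in shA5, an enrichment of −1.22 and −1.30. LUC7L and LUC7L3, which help U1 to choose 5′ splice sites, had −1.54 and −1.17 in shCTL. The Sm core, the ring of proteins that all major snRNPs except U6 carry, had a median of −1.50 with 3 of 7 measured. SNRPB had 403 and 77.6 CPM in shCTL and 483 and 109 CPM in shA5, and an enrichment of −2.37 (−2.57 to −2.19) and −2.14 (−2.34 to −1.95). The other Sm genes measured were SNRPD1 (−1.50) and SNRPD3 (−0.79).

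The genes of U2 and branch point recognition (13 of 17 measured) had a median of −0.49 in shCTL, with 5 lower and 2 higher. SF3B1, the subunit that contacts the branch point and is often mutated in blood cancers, had 1218 and 545 CPM in the shCTL input and IP and 1267 and 498 CPM in shA5. Its enrichment was −1.16 (−1.24 to −1.08) and −1.34 (−1.45 to −1.25). SF3B6, which touches the branch point adenosine, was the lowest of the class with −1.51 and −1.75, and SF3B3 had −0.64 and −0.75. SF3A1 and SF3A2 were near 0 in shCTL, with −0.073 and −0.026.

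U2AF2 and SF3B5 stood above the rest of this class. U2AF2, the subunit that binds the polypyrimidine tract, had 563 and 932 CPM in shCTL and 654 and 1262 CPM in shA5, an enrichment of 0.73 and 0.95. SF3B5, the smallest SF3B subunit, had 218 and 413 CPM in shCTL and 201 and 386 CPM in shA5, an enrichment of 0.92 and 0.94. Subunits of 1 complex therefore ranged from −1.51 for SF3B6 to 0.92 for SF3B5 in shCTL. The 2 genes have counting intervals that do not overlap (−1.82 to −1.22 and 0.77 to 1.07). U2AF1, the partner of U2AF2, had only 6, 4, 6 and 7 counts in the 4 libraries and has a near-identical copy, U2AF1L5, so it gave no usable ratio.

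The tri-snRNP and Prp factors had the narrowest range of enrichment among the classes with more than 4 measured genes. All 9 measured of 13 lay between −1.06 (PRPF39) and −0.081 (PRPF38A) in shCTL, with a median of −0.28 and none 1.5-fold higher. PRPF39, which works with the U1 snRNP, had 219 and 105 CPM in shCTL and 172 and 80.7 CPM in shA5. PRPF19, a ubiquitin ligase of the active spliceosome, had 976 and 591 CPM in shCTL and 999 and 561 CPM in shA5, an enrichment of −0.72 and −0.83. Among the RBM regulators RBM39 (−0.82), RBM5 (−0.59) and RBM17 (−0.32) were below 0 in shCTL and RBM22, a part of the active spliceosome, was at 0.11 in shCTL and −0.16 in shA5. Of the 7 kinases that phosphorylate SR proteins only CLK2 passed the filter, with −0.40 and 0.28. The last gene that the symbols matched, HNRNPA1P48, had at most 8 counts.

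The 34 genes below the filter include well-known factors. PRPF8, the centre of the spliceosome, had 11, 13, 8 and 14 counts in the shCTL input and IP and the shA5 input and IP, HNRNPA2B1 had 34, 39, 20 and 19, and HNRNPM had 13, 45, 20 and 39. HNRNPR, HNRNPAB, HNRNPUL1, RBM25, CLK1, CLK3, SRPK1 and SRPK2 were also there, and 29 of the 34 had a count in every library. Counts were highest for genes with 1 annotated coding transcript. The median of shCTL input counts per kb was 196 for the 16 splicing factor genes with 1 coding transcript, 56.2 for the 38 with 2 to 4 and 47.6 for the 43 with 5 or more, and 75, 60.5 and 67.4% of them passed the filter, so that the share did not fall further from 2 to 4 transcripts to 5 or more. Over all genes the medians were 14.3, 7.48 and 5.31, and 50.1, 37.3 and 27.9% of them passed the filter. How the counting treated reads that fit several transcripts is not given in the sources used here, and its part in these low counts was not tested.

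Intronless genes stood out among those with high enrichment. The leading transcript had 1 exon in 4 of the 64 genes, SRSF8, HNRNPA0, HNRNPA1L2 and SF3B5. Their median enrichment was 0.84 in shCTL and 0.91 in shA5, and 3 of the 4 in shCTL and 4 of 4 in shA5 were at least 1.5-fold higher in the IP, where 74.3 and 76.55% of all genes of 1 exon were. Genes with 2 to 9 exons had a median of −0.79 (23 genes) and those with 10 or more −0.55 (37 genes). The same step was seen over all genes, with a median of 1.02 for 226 genes of 1 exon, 0.0070 for 2 to 9 exons and −0.28 for 10 or more, so it is not particular to splicing factors. Within the classes with introns, 60.9 and 45.9% of the splicing factor genes were at least 1.5-fold lower in shCTL, against 27.5 and 35.3% of all genes.

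Base composition moved with enrichment. Splicing factor transcripts had a median GC content of 45.3%, against 51.4% over all genes, and 3.07 GGAC per kb, against 3.99. Across the 64 genes Spearman's rho of GC content with shCTL enrichment was 0.41, and 0.36 across 5296 genes. For GGAC per kb the values were 0.24 and 0.32. For the wider DRACH motif (A, G or T, then A or G, then AC, then A, C or T), which takes in a GGAC not followed by G and was counted on the sense strand, they had the opposite sign, −0.18 and −0.15. For coding length they were 0.30 and 0.085, for 3′ UTR length −0.16 and −0.058, for transcript length −0.0056 and −0.016, for the longest exon −0.012 and 0.062, for the number of exons 0.024 and −0.26, and for exons per kb −0.079 and −0.28. These are descriptions across genes that share the same libraries, and genes are not independent replicates. The third of the 64 with the lowest GC content (21 genes, up to 41.0%) had a median enrichment of −0.85 with 14 genes 1.5-fold lower, and the third with the highest (21 genes, from 50.5%) had −0.21 with 4 genes lower. With the trend on GC content removed over all genes, 22 of the 64 were lower in shCTL, against 29.6% of all genes, and 23 in shA5, against 30.1%, and the median of the 64 was −0.46 in shCTL. The count of lower genes in shCTL thus went from 31 to 22 of 64. Before removal 48.4% of the 64 were lower there, against 30.3% of all genes, so the excess over all genes became smaller. The median of the 64 still lay below that of all genes, which was −0.11 in shCTL with the trend removed. SNRPB and SNRPA had low enrichment in spite of GC-rich transcripts (58.2 and 57.9%).

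**Figure D2:**
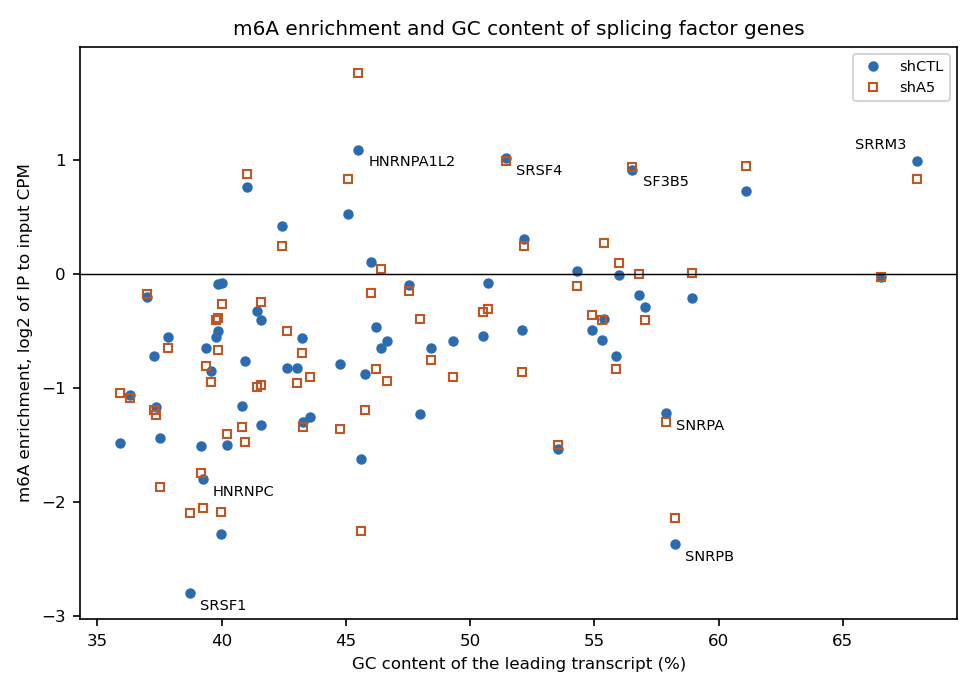
GC content of the leading transcript (percent, x axis) and m6A enrichment (log2 of IP to input CPM, y axis) of the 64 splicing factor genes, with circles for shCTL and open squares for shA5. Enrichment is mostly below 0 at low GC content, with HNRNPA1L2 high at 45.5% and SNRPB low at 58.2%.

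The order of the genes was alike in both populations. Across the 64 genes Spearman's rho between shCTL and shA5 enrichment was 0.91 and Pearson's r was 0.92, with 0.93 and 0.92 across all 5320 genes. The 4 libraries are separate, but both populations share transcript length, base composition and the antibody. The sign differed in 6 of the 64 genes and in 531 of the 5320.

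The change of enrichment with ALKBH5 knockdown asks which transcripts gained or lost share in the m6A-IP relative to their input. Its median over the 64 genes was −0.065, against 0.0036 over all genes, and the interval of the change held 0 in 45 of 64, lay above 0 in 6 and below 0 in 13. Enrichment was at least 1.5-fold higher in shA5 for 5 genes (5.38% of all genes) and lower for 3 (5.09% of all genes). Of these 8 genes, 7 had a mean under 200 counts, and 6 had an interval away from 0.

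HNRNPF, which binds G tracts, had 93 and 69 counts in the shCTL input and IP and 63 and 115 in shA5. The IP level rose from 17.5 to 36.5 CPM while the inputs were 41.6 and 48.0 CPM, and the change of enrichment was 0.83 (0.19 to 1.52). It was the only one of the 64 whose IP level was 1.5-fold higher in shA5 (1.04 on the log2 scale, interval 0.62 to 1.51, 2.58% of all genes), and none was lower (4.89% of all genes). SRSF1 had 240 and 59 counts in shCTL and 104 and 57 in shA5, and a change of 0.70 (0.054 to 1.36), with an input lower by 0.43 and an IP higher by 0.27 on the log2 scale.

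HNRNPA1L2 had a change of 0.67 (0.039 to 1.34). CLK2, a kinase that releases SR proteins from speckles, had 84 and 112 counts in shCTL and 35 and 102 in shA5, and its change of 0.67 had an interval that held 0 (−0.041 to 1.42). LUC7L2 had 79 and 88 counts in shCTL and 21 and 52 in shA5, with a change of 0.69 that also held 0 (−0.20 to 1.64). In both the input was the library that moved most.

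The 3 genes with lower enrichment in shA5 were TRA2B, SRSF2 and RBM17. TRA2B, which binds GAA-rich enhancers, had 287 and 297 counts in shCTL and 232 and 200 in shA5, that is 128 and 75.3 CPM against 177 and 63.5 CPM. Its change was −0.71 (−1.08 to −0.34), with an input higher by 0.46 and an IP change of −0.24. SRSF2 had 224 and 127 counts in shCTL and 154 and 76 in shA5, and a change of −0.64 (−1.18 to −0.12). RBM17, which contacts SF3B1, had 104 and 146 counts in shCTL and 70 and 84 in shA5, and a change of −0.66 (−1.28 to −0.058).

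**Figure D3:**
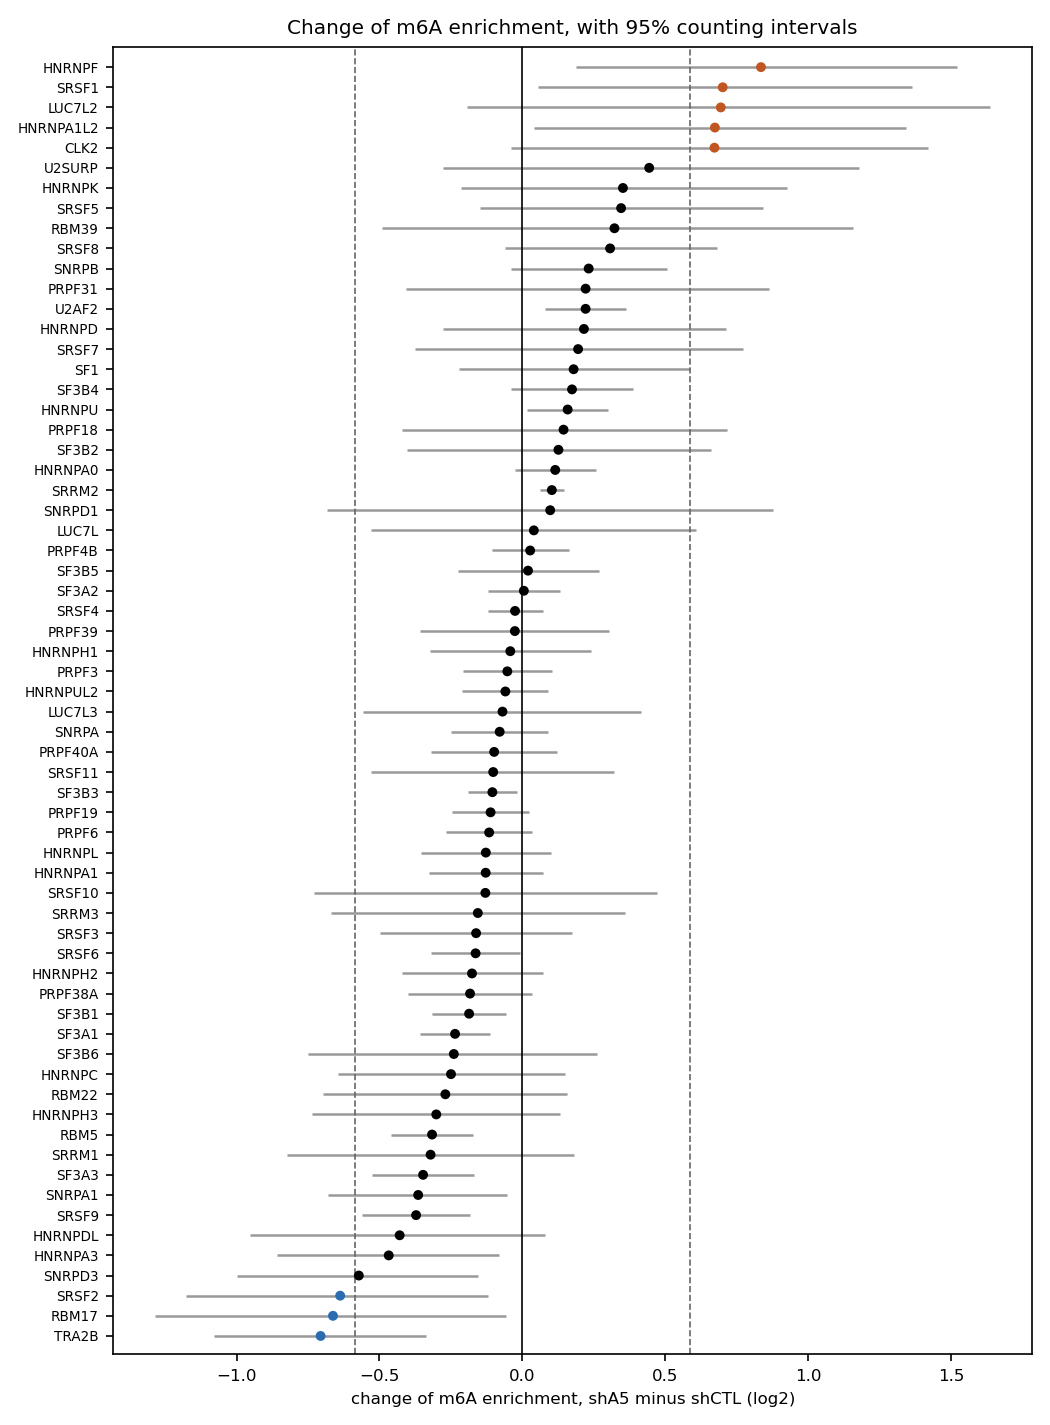
Change of m6A enrichment (shA5 minus shCTL, log2, x axis) of the 64 splicing factor genes in order, with exact 95% counting intervals as bars, dashed lines at 1.5-fold, orange for the 5 genes above it and blue for the 3 below it. Most intervals hold 0, and the called genes have wide intervals.

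The abundant genes moved little. In the 41 genes that averaged 200 counts or more the median size of the change was 0.16, and TRA2B was the only one called (2.44%, against 2.73% of 2491 genes). In the 23 genes with 50 to under 200 counts the median size was 0.32 and 7 were called (30.4%, against 17.3% of 2829 genes). SRRM2 had a change of 0.10 (0.062 to 0.14), SRSF4 −0.026 (−0.12 to 0.071), SF3B3 −0.11 (−0.19 to −0.019) and HNRNPA0 0.11 (−0.026 to 0.26). In 32 of the 64 genes the whole interval lay within 1.5-fold.

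Among genes under 1.5-fold, 13 had an interval away from 0, and these were mostly small decreases. Without the share over all genes, this cannot be read as particular to splicing factors. SRSF9 had a change of −0.37 (−0.56 to −0.18), SF3A3 −0.35 (−0.53 to −0.17), RBM5 −0.32 (−0.46 to −0.17) and SF3A1 −0.24 (−0.36 to −0.11). SNRPD3, at −0.57 (−1.0 to −0.16), lay just inside the threshold. U2AF2 and HNRNPU went the other way, with 0.22 (0.078 to 0.36) and 0.16 (0.017 to 0.30), as did SRRM2. These intervals leave out the spread between cultures, which 1 library per group cannot show.

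The RNA level of splicing factor genes differed little between the inputs. The median change of input RNA was −0.0027, against −0.020 over all genes. None of the 64 was 1.5-fold higher in shA5 (3.44% of all genes) and 1 was lower (6.43% of all genes). The interval held 0 in 39 genes, lay above 0 in 14 and below 0 in 11, and in 42 genes it lay wholly within 1.5-fold. The gene with the lower input was LUC7L2, with 35.3 CPM in shCTL and 16.0 CPM in shA5, a change of −1.12 (−1.91 to −0.43) that rests on 79 and 21 counts. It shares exons with the read-through gene FMC1-LUC7L2, and whether its counts come from both was not tested. In a bulk sample, fewer cells with an RNA and less of it per cell cannot be told apart.

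Below the threshold, the larger input changes went both ways. RBM22 was higher by 0.49 (0.15 to 0.84), TRA2B by 0.46 (0.21 to 0.72), SF3A3 by 0.45 (0.31 to 0.58), SRRM1 by 0.44 (0.088 to 0.79) and HNRNPC by 0.41 (0.18 to 0.64). SRSF5 had −0.47 (−0.82 to −0.12), SRSF1 −0.43 (−0.78 to −0.098), SRSF11 −0.43 (−0.74 to −0.12) and PRPF39 −0.35 (−0.59 to −0.12). U2AF2 and SNRPB had higher values in both libraries of shA5, with IP changes of 0.44 (0.37 to 0.50) and 0.49 (0.27 to 0.72) and input changes of 0.22 and 0.26.

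**Figure D4:**
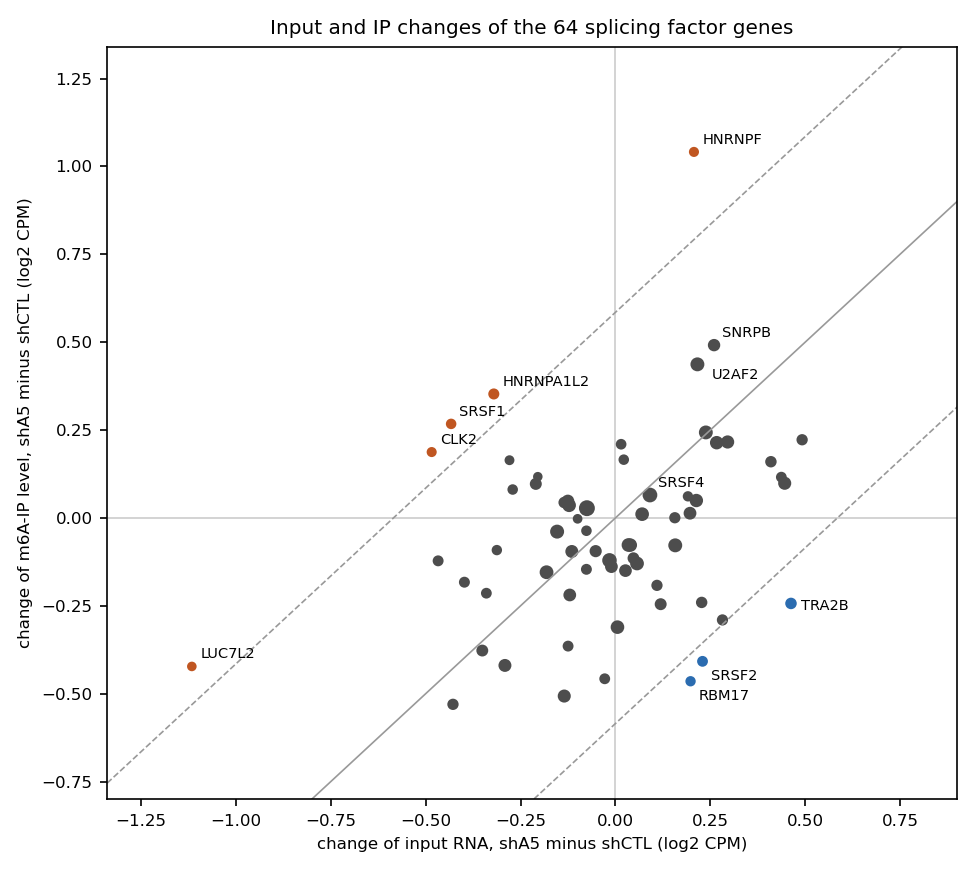
Change of input RNA (x axis) and of m6A-IP level (y axis), both shA5 minus shCTL in log2 CPM, for the 64 splicing factor genes, with larger points for higher mean counts. Points on the solid line have unchanged enrichment, the dashed lines mark a 1.5-fold change of it, and the 5 genes above the upper line are orange and the 3 below the lower line blue. LUC7L2 lies far to the left and HNRNPF at the top.

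The deposited counts name transcripts, so isoforms of 1 gene could be set side by side. In 19 of the 64 genes at least 2 transcripts had a mean of at least 20 counts, and the transcripts of highest and lowest enrichment in shCTL were taken as a pair. This choice was made after the data had been seen and fixes the direction in shCTL, so only shA5 is informative about the order. In shA5 the order was the same in 18 of 19 pairs (94.7%), against 75.8% of 653 genes, and HNRNPH3 was the exception. Its gap was 0.012 in shCTL and −0.61 in shA5, with an interval that held 0 (−1.39 to 0.14). The interval of the shA5 gap also held 0 in RBM17, SRSF1, HNRNPC, HNRNPD, SRRM2, SRSF5 and SF1, so their order is not settled. The gap was at least 1.5-fold in shA5 in 11 of the 19 (57.9%), close to the 55.1% over all genes. Isoform counts depend on how shared reads were assigned, which is not given in the sources used here.

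**Figure D5:**
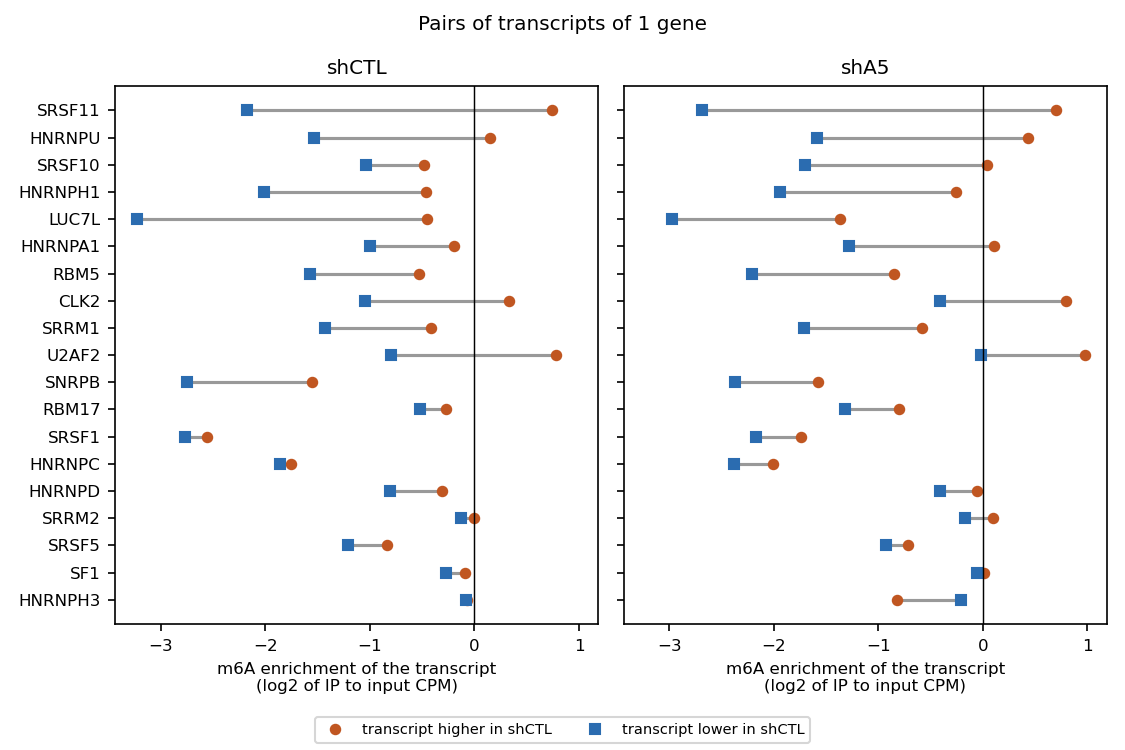
m6A enrichment (log2 of IP to input CPM, x axis) of pairs of transcripts in 19 splicing factor genes, in shCTL (left) and shA5 (right). Circles are the transcript that was higher in shCTL and squares the one that was lower, and the bars join transcripts of 1 gene. SRSF11 has the widest gap in both panels, and in HNRNPH3 the order is turned in shA5.

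The widest gap was in SRSF11, an SR-related protein. ENST00000370951 had 60 and 178 counts in the shCTL input and IP and 21 and 83 in shA5, while ENST00000370949 had 181 and 69 in shCTL and 84 and 30 in shA5. The enrichment was 0.74 and 0.70 for the first and −2.18 and −2.69 for the second, a gap of 2.92 in shCTL and 3.39 in shA5 (2.49 to 4.46). By these counts the gene-level value of −0.85 joins transcripts on both sides of 0. Only 42 bases of the first and 16 of the second lie in no other coding transcript of the gene. The split between them thus depends on how shared reads were assigned. Of this pair, the second transcript holds a block of 1435 bases downstream of its stop codon (chr1:70251618-70253052) and 235 bases of 5′ UTR (chr1:70221380-70221614) that the first lacks. Another transcript, ENST00000370950, ends at the same base as the second and had an enrichment of −1.20 and −0.26.

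HNRNPU, a nuclear matrix protein, had 442 and 867 counts in shCTL and 254 and 823 in shA5 on ENST00000640218, and 170 and 102 in shCTL and 110 and 87 in shA5 on ENST00000440865. The gap was 1.69 and 2.02 (1.56 to 2.51 in shA5). Of the pair, ENST00000640218 holds 3109 bases downstream of the stop codon (chr1:244850297-244853405) that the other lacks. ENST00000444376, the HNRNPU transcript with the most counts, ends at the same base and had an enrichment of −0.55 and −0.45. In LUC7L the gap was 2.77 in shCTL and 1.61 in shA5 (0.34 to 3.25), on as few as 9 counts. In HNRNPA1 it was 0.80 and 1.40 (0.99 to 1.81), and the higher transcript, ENST00000340913, has an extra coding block of 156 bases (chr12:54283079-54283234) where the lower, ENST00000546500, has 533 bases more of 5′ UTR.

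In HNRNPH1 and U2AF2 the transcript of lower enrichment holds a short coding block that the higher one lacks, and the blocks are shown as examples of short coding differences between transcripts with a gap over 1.5-fold. No motif was searched in them, so all letters are in lower case.
HNRNPH1 ENST00000510411, chr5:179617021-179617050, minus strand: gtagccaaatgctaggaggcatgggtttgt
U2AF2 ENST00000308924, chr19:55669170-55669181, plus strand: gtgagccccccg
The HNRNPH1 transcript with this block had 233 and 100 counts in shCTL and 122 and 75 in shA5, and ENST00000442819 without it had 49 and 62 in shCTL and 26 and 52 in shA5, a gap of 1.55 and 1.69 (0.86 to 2.56 in shA5). ENST00000442819 also has 90 more coding bases elsewhere. The U2AF2 transcript with the block had 68 and 68 counts in shCTL and 32 and 76 in shA5, and ENST00000450554 without it had 1190 and 3608 in shCTL and 824 and 3895 in shA5, a gap of 1.58 and 0.99 (0.34 to 1.62 in shA5). ENST00000450554 starts with 889 bases of 5′ UTR that the other lacks, so the pairs differ in more than these blocks.

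Transcripts that lead to decay were nearly absent from the tables. Of the 216 transcripts listed for the 98 genes, 206 are in Gencode v44 and 1 of those is annotated as a target of nonsense-mediated decay, with 9, 2, 1 and 9 counts in the shCTL input and IP and the shA5 input and IP. No retained-intron transcript was listed. Such transcripts were rare over all genes too. There, 68 decay and 64 retained-intron transcripts held 0.020 and 0.088% of the counts in the shCTL input. The known decay-linked isoforms of SR and hnRNP genes were therefore not measurable here.

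Other splicing genes were looked at in the same way. Of 82 further spliceosome and regulator genes, 80 had a count and 52 passed the filter. In shCTL 22 of the 52 were 1.5-fold lower and 5 higher (30.3 and 22.5% of all genes), with a median of −0.34, and in shA5 21 were lower and 4 higher (31.7 and 24.3% of all genes). Among them enrichment was higher in shA5 in PUF60 (0.77, interval −0.078 to 1.67) and lower in CWC15 (−0.66, −1.09 to −0.24). No input passed 1.5-fold in either direction, where 3.44% of all genes were higher and 6.43% lower. The SNRNP genes, looked at after their values were seen, had 4 of 7 measured, with SNRNP200 (−0.96), SNRNP40 (−0.99) and SNRNP48 (−0.65) lower in shCTL and SNRNP70, the U1-70K protein, higher (0.95). ZRSR2, which reads the 3′ splice site of minor introns and is mutated in blood cancers, had 0.59 in shCTL and 0.54 in shA5.

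Overlapping genes and copies touch many of these values. Of the 64 genes, 15 have exons of another gene on the opposite strand of the leading transcript, 12 on the same strand, and 31 have a pseudogene named after them, 43 in all. Among the genes named above, SRSF2 faces MFSD11, SF3A1 faces CCDC157, PRPF39 faces FKBP3 and SNRPA faces ACTMAP, and strand use in counting is not given in the sources used here. In the 21 genes with none of these the median enrichment was −0.55 in shCTL and −0.41 in shA5.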

How the data were processed

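The authors isolated total RNA with Trizol, purified poly(A) RNA with oligo(dT) beads, fragmented it and pulled down m6A fragments with an antibody. They processed reads with fastp 0.23.2, aligned them to hg38 with HISAT2, sorted them with SAMtools 1.9, and name StringTie for quantification and MACS2 for enriched regions (versions from the submitters' processing notes). The authors deposited raw counts, 1 whole number for each Ensembl transcript, without normalization. Whether StringTie wrote these counts, and the annotation release, are not given in the sources used here. Transcript lengths in the tables were not used.

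Counts were summed per gene symbol and divided by library totals to give CPM. Genes that averaged 50 counts or more were kept (94.5 to 96.2% of counts). Intervals were Clopper-Pearson for ratios of CPM and conditional odds ratios for changes of enrichment, at 95%. Annotation was Gencode v44, with 206 of 216 transcripts of the splicing factor genes matched by ID and 182 of equal length. The leading transcript is the one with most counts. Features were not available for genes whose transcripts did not match.

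The members, gene lists, roles and named genes were chosen with earlier results of these data known. Named genes were every gene past 1.5-fold in change of enrichment or input, the highest and lowest enrichment of each role, the 5 highest mean counts, SF3B1, U2AF1, SRSF2 and ZRSR2, and the 5 with the largest share of counts on non-coding transcripts, which no gene met. Other genes are examples chosen after their values were seen. Steps were tested on simulated data. The alternatives are given at the end. The planned protein features were not run. Some items that these rules select are not reported here. Python 3.11.15, numpy 2.4.6, pandas 2.3.3, scipy 1.17.1, statsmodels 0.14.6, matplotlib 3.10.9, R 4.3.3, edgeR 4.0.16 and DESeq2 1.42.0 were used, the last 2 for scaling factors only.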

Additional observations from a re-analysis of the deposited data

Results flagged for a closer look

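In 6 of the 64 splicing factor genes the m6A enrichment was on one side of 0 in shCTL and on the other in shA5. The same was seen in 531 of all 5320 genes, a similar share. With 1 library per group this difference was not tested. CLK2 moved from −0.40 to 0.28, a change of 0.67, and LUC7L2 from −0.65 to 0.043, a change of 0.69. PRPF31 moved from −0.21 to 0.0095, a change of 0.22, and SRRM2 from −0.0081 to 0.095, a change of 0.10. HNRNPL moved from 0.024 to −0.10, a change of −0.13, and RBM22 from 0.11 to −0.16, a change of −0.27. Of these, only SRRM2 had an interval of the change away from 0 (0.062 to 0.14).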

How the results depend on the processing

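A count over the splicing factor genes was taken as kept when it stayed within 1.5 times its value, a median when it stayed within the 95% interval of that median from ranked genes, and a single gene when it stayed within its counting interval. By these limits 642 of 686 recomputed values were kept. Of counts, medians and shares over the splicing factor genes 111 of 140 were kept, and of single-gene values 531 of 546. A turn of direction could be scored only for single-gene values past 1.5-fold, and 0 of these turned. All counts and medians were kept with edgeR TMM or DESeq2 scaling, pseudocounts of 0.1 or 2 CPM and coding transcripts only, and the medians also without genes that overlap others or have pseudogenes (added after seeing the data). The GC trend came close to the limit. With it removed, the genes lower in the IP went from 31 to 22 in shCTL (29.6% of all genes). In shA5 they went from 34 to 23 (30.1%). The limit compares a count only with its own main value, not with all genes. In the main setting 48.4% of the splicing factor genes were lower in shCTL and 53.1% in shA5, against 30.3 and 31.7% of all genes. These counts were thus kept, but their excess over all genes became smaller. Shares over all genes follow each count in parentheses. With a mean of 10 counts or more (87 genes), 11 were higher in the IP in shA5 (21.3%), enrichment was higher in shA5 in 11 (12.6%) and lower in 10 (13.0%), and input higher in 4 (9.32%) and lower in 5 (12.5%). With no filter (98 genes), 47 were lower in the IP in shCTL (36.7%), 13 higher (24.5%) and 52 lower (37.5%) in shA5, enrichment was higher in 14 (22.7%) and lower in 15 (21.4%), and input higher in 10 (15.3%) and lower in 8 (19.9%). With 200 counts or more (41 genes), 16 were lower in the IP in shCTL (21.7%) and 20 in shA5 (23.7%), enrichment was higher in 0 (1.65%) and lower in 1 (1.08%), and input lower in 0 (3.33%). At 2-fold, 2 were higher (10.1%) and 18 lower (16.9%) in shCTL, 1 higher (11.97%) and 19 lower (18.4%) in shA5, and enrichment was higher in 0 (0.846%) and lower in 0 (0.771%). In thinned libraries (58 genes), enrichment was higher in 3 (4.54%) and input lower in 0 (4.88%). Shares on retained-intron transcripts were 0% in each library. The 15 single-gene values that moved were all shCTL enrichments with the GC trend removed, such as SRSF1 (−2.30), HNRNPC (−1.32) and SF3B1 (−0.74). No paired analysis was possible because there is 1 library in each group, and no library could be left out. The shA5 input has the lowest depth, and in genes of low enrichment the IP counts can be the smaller ones.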
